A study of Mus musculus with 6 samples.

Results

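Heat shock proteins and chaperonins were examined in CD4+CD62L- T cells that lacked or retained Dicer, the ribonuclease that cuts precursor hairpins into mature microRNAs. The genes were chosen by name: the HSP70, HSP90, HSP110, mitochondrial chaperonin and small heat shock protein genes, the J protein genes (Dnaja, Dnajb and Dnajc), the cytosolic chaperonin genes (Tcp1 and Cct2 to Cct8, with their variants) and the heat shock factors Hsf1 and Hsf2. An array row entered only where the platform annotation gave it a single symbol, and rows of the same gene were averaged. This gave 81 of the 19935 genes measured, on 104 array rows. No filter on low values was applied, so all 81 were tested. Rows with a single symbol for Hsf1, Hspa1b and Hsp90ab1 were not analysed here, and 10 further rows that carried a chaperone name together with other symbols were not used.

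The study set 3 Dicer KO samples against 3 Dicer WT samples on 1-colour Affymetrix MoGene 1.0 ST arrays. Dicer KO cells came from mice with both Dicer alleles floxed and a Cre transgene driven by the Cd4 promoter. Dicer WT cells came from mice with the same floxed alleles and no Cre. In both genotypes resting CD4+CD62L- cells were sorted from lymph nodes, with no treatment, and the samples of a genotype were described by the submitters as biological replicates. Mouse age, sex and strain background were not given. The Cd4 promoter is active from the thymus onwards, also in cells that become CD8+, so this Cre acts before the cells reach the lymph node.

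Molecular chaperones bind proteins that are unfolded or still folding. HSP70 proteins grip short hydrophobic stretches in a cycle driven by ATP, in which J proteins deliver the client and stimulate ATP cleavage while HSP110-type proteins and other exchange factors replace ADP with ATP. HSP90 proteins act later on a narrower set of clients such as kinases and receptors, and chaperonins enclose a whole protein, HSP60 with HSP10 in mitochondria and the CCT ring in the cytosol. Most compartments keep their own set: BiP and GRP94 in the endoplasmic reticulum, mortalin and HSP60 in mitochondria, HSC70 in the cytosol. Heat shock factor 1 induces the cytosolic set under protein damage, and the unfolded protein response induces the endoplasmic reticulum set.

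All values below are on the deposited log scale, read as log2, where the median of the 6 arrays is 0 in each row. They are therefore differences between arrays and not expression levels, and genes were set apart by level only in the coarse classes described later. In such a table a gene on 1 row whose genotypes do not overlap has its innermost Dicer KO and Dicer WT arrays at equal distances from 0 by construction. Each difference is Dicer KO minus Dicer WT with the standard error (SE) of the limma fit on 3 against 3 arrays. Adjusted p is Benjamini-Hochberg over all 19935 genes, with a threshold of 0.05. A fold is 2 to the power of the difference and assumes base 2. In bulk samples, fewer cells of a type and less RNA per cell cannot be told apart.

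In Dicer KO cells 4 chaperone genes of the endoplasmic reticulum, led by Hspa5 (1.72-fold), 4 genes of cytosolic HSP70 partners and 3 subunit genes of the CCT ring were higher. The mitochondrial cofactor gene Hspe1 was lower. Of the 81 genes, 13 rose, 2 fell and 66 did not pass. Over all 19935 genes 5.94% rose and 2.79% fell. The genes that rose were Hspa5, Hspa4l, Hspa9, Hspa4, Hsp90b1, Dnaja1, Dnaja2, Dnajb11, Dnajc3, Dnajc13, Tcp1, Cct8 and Cct2. The genes that fell were Hspe1 and Dnajc27. The median difference of the 81 genes was 0.028, with 47 positive and 34 negative differences, beside a median of -0.011 over all genes. No array of one genotype lay among those of the other for 28 of them, 21 higher in Dicer KO and 7 lower, beside 13.5% and 12.7% of all genes.

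**Figure D1:**
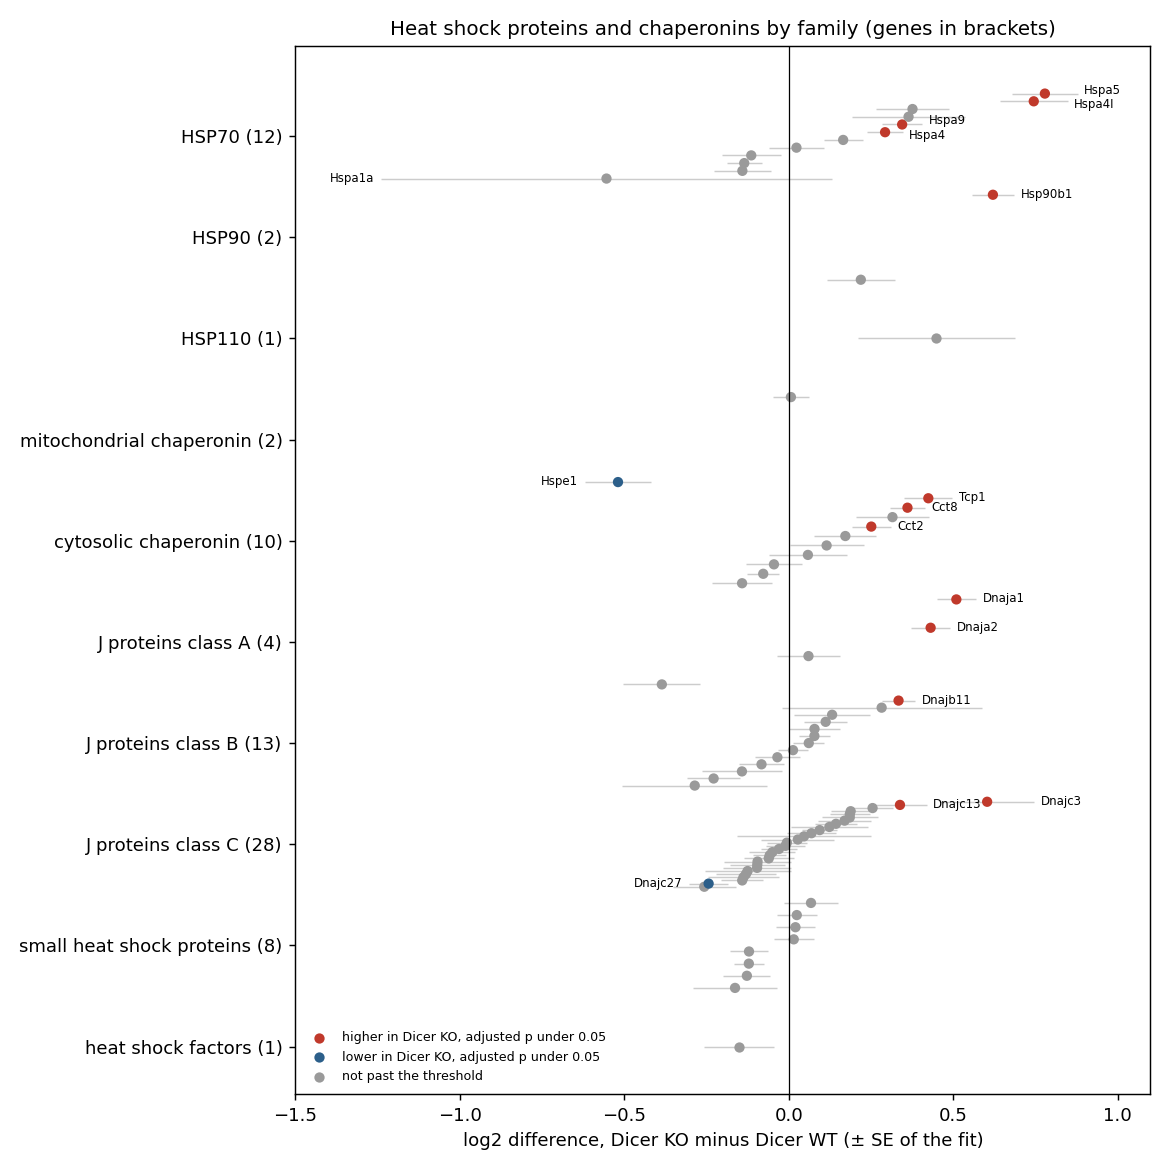
Log2 difference, Dicer KO minus Dicer WT, of each of the 81 genes by family (points, with the SE of the fit as horizontal lines). Red points rose, blue points fell at the adjusted p threshold, and grey points did not pass. Labels name the 15 genes that passed and Hspa1a, whose SE of 0.69 is the widest.

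All but 1 of the genes that rose lay among the rows of higher level. The deposited numbers keep a binary step that grows with the level before centring, and it placed 28 of the 81 genes in a higher level class, on all 6 arrays, and 53 in a lower one. In the higher class 12 of 28 chaperone genes rose and 1 fell, beside 21.1% and 4.35% of all 3169 genes of that class. Their median difference was 0.20, beside 0.12 for all genes of the class. In the lower class 1 of 53 rose, Hspa4l, and 1 fell, Dnajc27, with a median of -0.034, beside -0.019 for all 16766 genes of the class. A gene at the higher level in only 1 genotype falls in the lower class, so the class is not independent of the genotype difference. When each array was centred within each level class, an alternative added after the data were seen, 7 chaperone genes rose and 1 fell. Of all 19935 genes, 921 rose and 550 fell with this centring, beside 1184 and 557 without it. The chaperone genes that kept their call were Hspa5, Hsp90b1, Dnaja1, Dnaja2, Hspa4l, Cct8 and Hspe1, and Dnajc25 was gained.

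**Figure D2:**
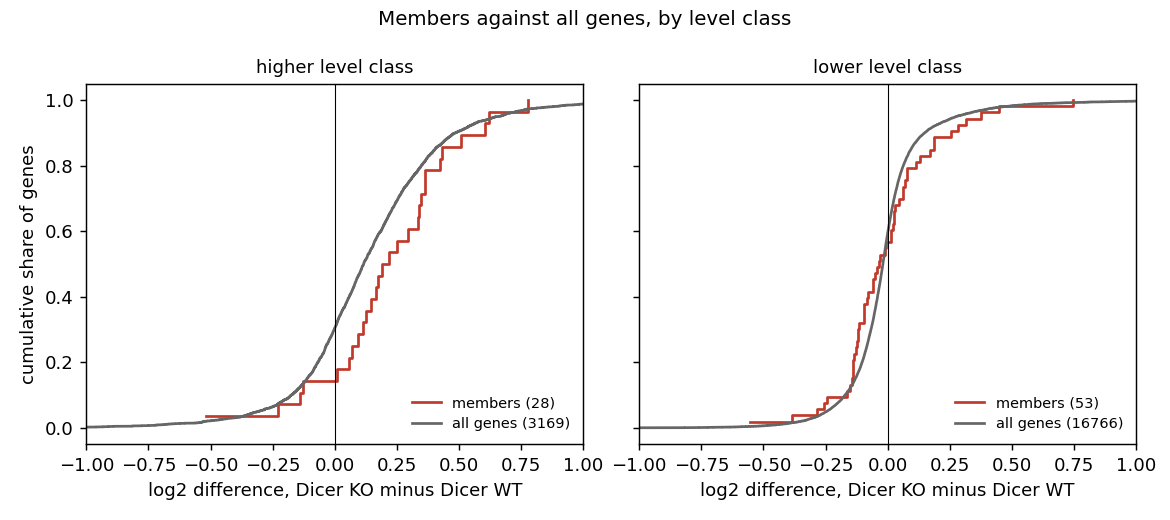
Cumulative share of genes (vertical axis) against the log2 difference, Dicer KO minus Dicer WT (horizontal axis, shown from -1 to 1), for the chaperone genes (red) and all genes (grey, which include them). In the higher level class on the left, the 28 chaperone genes have a median of 0.20 and the 3169 genes one of 0.12. In the lower class on the right the medians are -0.034 and -0.019.

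The row of Dicer1 on the array did not differ, at 0.21, -0.020 and -0.087 in Dicer KO and 0.12, 0.020 and -0.095 in Dicer WT (difference 0.019 ± 0.093, adjusted p = 0.949 in limma). Which part of the gene its probes cover is unknown, so it was no check of the genotype labels. All 9 measured T cell marker genes lay in the higher level class, and none of the 11 measured B cell markers did. Of these 9, 3 rose (Cd4, Cd2 and Thy1), 1 fell (Cd5) and 5 did not pass, with a median difference of 0.20. Cd4 differed by 0.67 ± 0.074 (limma, adjusted p = 0.00328) and Cd5 by -0.44 ± 0.062 (adjusted p = 0.00704).

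The promoters of the 4 endoplasmic reticulum genes that rose are shown because each holds an element of the unfolded protein response. Promoter windows of 250 bases before and 50 after the start site, from RefSeq on GRCm38.p6, were found for 67 of the 81 genes. The endoplasmic reticulum stress element (ERSE) was searched as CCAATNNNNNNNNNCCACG and its shorter relative ERSE-II as ATTGGNCCACG, on both strands. Capitals mark the matches. The windows are Hspa5 at chr2:34771840-34772139 (plus strand), Hsp90b1 at chr10:86705395-86705694 (minus strand), Dnajc3 at chr14:118937682-118937981 (plus strand) and Dnajb11 at chr16:22857595-22857894 (plus strand), each printed 5′ to 3′ along its gene.
Hspa5: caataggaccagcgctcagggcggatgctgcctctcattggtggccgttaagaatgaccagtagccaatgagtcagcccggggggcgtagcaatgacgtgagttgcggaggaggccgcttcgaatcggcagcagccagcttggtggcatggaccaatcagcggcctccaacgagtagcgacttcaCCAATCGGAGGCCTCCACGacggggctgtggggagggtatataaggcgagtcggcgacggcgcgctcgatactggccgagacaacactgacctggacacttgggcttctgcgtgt
Hsp90b1: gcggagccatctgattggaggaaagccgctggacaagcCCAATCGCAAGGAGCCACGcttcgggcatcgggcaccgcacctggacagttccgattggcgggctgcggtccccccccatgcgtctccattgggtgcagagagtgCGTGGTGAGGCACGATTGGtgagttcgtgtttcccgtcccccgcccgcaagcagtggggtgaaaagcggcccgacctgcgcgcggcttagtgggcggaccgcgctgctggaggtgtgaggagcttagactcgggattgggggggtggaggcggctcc
Dnajc3: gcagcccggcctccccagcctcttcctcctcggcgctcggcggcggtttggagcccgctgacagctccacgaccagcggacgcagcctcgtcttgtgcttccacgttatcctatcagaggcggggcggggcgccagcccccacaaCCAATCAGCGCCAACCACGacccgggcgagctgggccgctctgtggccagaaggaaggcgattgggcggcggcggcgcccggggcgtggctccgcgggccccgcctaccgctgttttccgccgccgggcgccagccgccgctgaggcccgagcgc
Dnajb11: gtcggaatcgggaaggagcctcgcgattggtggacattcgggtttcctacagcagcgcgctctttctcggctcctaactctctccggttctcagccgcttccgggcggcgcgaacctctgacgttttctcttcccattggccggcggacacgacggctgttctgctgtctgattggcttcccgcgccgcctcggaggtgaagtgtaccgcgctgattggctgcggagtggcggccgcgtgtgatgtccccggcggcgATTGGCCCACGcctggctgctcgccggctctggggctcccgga

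The ERSE begins at position -65 from the start site in Hspa5 and at -105 in Dnajc3, and it occurs both at -212 and, on the opposite strand, at -107 in Hsp90b1. The ERSE-II of Dnajb11 begins at position 8, just inside the transcript. Of 32851 promoter windows in the table, 39 (0.119%) held an ERSE and 12 (0.0365%) an ERSE-II. Among the 67 chaperone genes with a window, Hspa5, Hsp90b1 and Dnajc3 held an ERSE and Dnajb11 an ERSE-II. Of the 18 other measured genes with an ERSE in a window, 6 rose and 0 fell, with a median difference of 0.068. Calr, which encodes the lectin chaperone calreticulin, was among those that rose, as were Canx, Pdia6 and Syvn1. These are counted again in the endoplasmic reticulum list below, so the counts are not independent. Of the 8 other measured genes with an ERSE-II, 0 rose and 1 fell, with a median of -0.076. A match says only that these letters are present in the window.

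Hspa5 encodes BiP, the HSP70 of the endoplasmic reticulum and the sensor-binding chaperone that restrains the unfolded protein response. It stood at 0.38, 0.40 and 0.23 in Dicer KO and at -0.23, -0.56 and -0.54 in Dicer WT. All 3 Dicer KO arrays lay above all 3 Dicer WT arrays, and the difference was 0.78 ± 0.10, or 1.72-fold (limma, adjusted p = 0.00506). It was the largest difference of the 81 genes.

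Hsp90b1 encodes GRP94, the HSP90 of the same compartment, which folds integrins and Toll-like receptors. It stood at 0.32, 0.39 and 0.25 in Dicer KO and at -0.25, -0.26 and -0.40 in Dicer WT, with no overlap. The difference of 0.62 ± 0.065, or 1.54-fold, had the lowest adjusted p of the 81 genes (limma, 0.00273). Both Hspa5 and Hsp90b1 passed in each of the 6 fits that left out 1 array.

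Dnajc3 encodes P58IPK, a J protein of the endoplasmic reticulum lumen that works with BiP. Its values were 0.42, 0.10 and 0.12 in Dicer KO and -0.44, -0.10 and -0.62 in Dicer WT. The genotypes did not overlap but the Dicer WT arrays were widely spread, and the difference of 0.60 ± 0.14, or 1.52-fold, passed narrowly (limma, adjusted p = 0.0459). The call was lost without Dicer KO 1, KO 2 or KO 3 and without Dicer WT 1 or WT 3, and with the arrays centred within level classes (adjusted p = 0.0716).

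Dnajb11 encodes ERdj3, a J protein that hands newly made secretory proteins to BiP. It stood at 0.12, 0.23 and 0.18 in Dicer KO and at -0.16, -0.19 and -0.12 in Dicer WT, with no overlap. The difference was 0.33 ± 0.051, or 1.26-fold (limma, adjusted p = 0.00963). It passed without any 1 array and missed the threshold with the arrays centred within level classes (adjusted p = 0.0527).

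Of the other endoplasmic reticulum members, Hspa13, an HSP70 without the usual client-binding domain, stood at 0.053, 0.45 and 0.23 in Dicer KO and -0.053, -0.28 and -0.064 in Dicer WT. The genotypes did not overlap, but the difference of 0.38 ± 0.11 did not pass (limma, adjusted p = 0.0902). Dnajc10, the disulfide reductase ERdj5, did not overlap either and had a difference of 0.19 ± 0.059 (adjusted p = 0.109). Dnajc1, a J protein of the membrane, had a difference of 0.17 ± 0.081 (adjusted p = 0.295). Dnajb9, the BiP partner ERdj4, was nearly level in Dicer KO at 0.017, 0.025 and -0.017 and spread widely in Dicer WT at 0.40, -0.23 and -0.99, and its difference of 0.28 ± 0.30 did not pass (adjusted p = 0.696). In this group of 8, put together after the data were seen, all 8 differences were positive, 4 rose and the median was 0.36. Of the 8 genes, 5 lay in the higher level class, the 4 that rose among them. Of all 3169 genes of that class 2205 had positive differences and 21.1% rose, with a median of 0.12. With the arrays centred within level classes all 8 stayed positive and 2 were called. The membrane J protein genes Dnajb12, Dnajb14, Dnajc14 and Dnajc18 of this compartment were not put in the group. They differed by 0.13, 0.078, 0.069 and -0.095, and none passed.

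**Figure D3:**
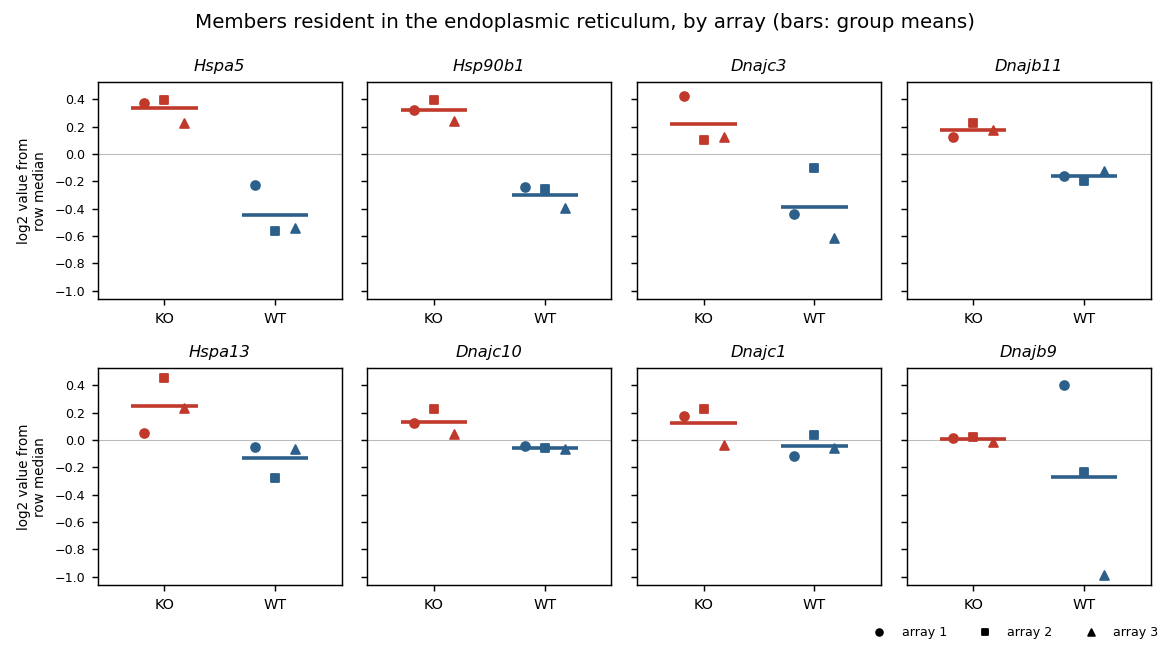
Deposited log2 values, relative to each row's median, of the 8 chaperone genes grouped under the endoplasmic reticulum after the data were seen. Dicer KO arrays are red (left) and Dicer WT arrays blue (right), and bars are group means. In Hspa5, Hsp90b1, Dnajc3, Dnajb11, Hspa13 and Dnajc10 all Dicer KO arrays lie above all Dicer WT arrays. The Dicer WT arrays of Dnajb9 run from 0.40 to -0.99.

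In the endoplasmic reticulum folding and unfolded protein response list, 27 measured genes were not among those chosen by name. Of these 27, 9 rose and 0 fell, with a median difference of 0.28, and 11 lay in the higher level class. Pdia3, a disulfide isomerase that serves the lectin chaperones, stood at 0.40, 0.46 and 0.38 in Dicer KO and -0.45, -0.46 and -0.38 in Dicer WT, a difference of 0.84 ± 0.050 (limma, adjusted p = 0.000514). The groups were far apart and tight. Sel1l, the adaptor of the Hrd1 ubiquitin ligase, rose by 0.77 ± 0.084 (adjusted p = 0.00321). Calr rose by 0.75 ± 0.089 (adjusted p = 0.00403). Edem1, which delivers misfolded glycoproteins for degradation, rose by 0.73 ± 0.062 (adjusted p = 0.00134).

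The transcription factors Xbp1, Ddit3, Atf4 and Atf6 of the response, named after their values were seen, did not pass. Of its kinase genes, also named afterwards, Eif2ak3 rose by 0.32 ± 0.059 (limma, adjusted p = 0.0191). Ern1 differed by 0.17 ± 0.081 and did not pass (adjusted p = 0.286). Xbp1 had a difference of 0.31 ± 0.13 (limma, adjusted p = 0.230), Ddit3 one of 0.12 ± 0.068 (adjusted p = 0.398) and Atf4 one of -0.059 ± 0.10 (adjusted p = 0.828). Atf6 had a difference of -0.29 ± 0.14 (adjusted p = 0.303), the lowest of the list. Xbp1 stood at -0.068, 0.22 and 0.20 in Dicer KO and -0.25, -0.41 and 0.068 in Dicer WT, with overlap. The array measures total message, so splicing of Xbp1 was not seen.

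Antibody-forming cells are known to carry much of this machinery. All 11 measured B cell markers had positive differences and 2 rose, Bank1 and Ly6d. In limma 8 of the 11 had an unadjusted p under 0.05, and for 5 the genotypes did not overlap. The median of the 11 by array was 0.16, 0.079 and 0.12 in Dicer KO and -0.45, 0.015 and -0.22 in Dicer WT. The part of B cells in the endoplasmic reticulum values was not tested. Of the 9 measured plasma cell markers, a list added after the data were seen, 0 passed in limma and 1 had an unadjusted p under 0.05, with a median difference of 0.060. Among other cell types, all 6 NK cell markers were positive and 0 passed. Of 10 myeloid markers 4 were positive and 1 rose, and of 6 stroma and endothelium markers 3 were positive and 1 rose. Of 7 dendritic cell markers 2 were positive and 0 passed.

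In the cytosol Dnaja1, Dnaja2, Hspa4l and Hspa4 rose. Hspa8, the gene of the ATPase they serve, did not pass, though its difference of 0.36 exceeded that of Hspa4 at 0.29. Hspa8 was not tested against these genes. Dnaja1, a farnesylated J protein that partners HSC70, is on 2 array rows. It stood at 0.17, 0.26 and 0.30 in Dicer KO and at -0.29, -0.18 and -0.32 in Dicer WT. The genotypes were clearly apart, with a difference of 0.51 ± 0.060, or 1.42-fold (limma, adjusted p = 0.00392), and the rows gave 0.42 and 0.60.

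Dnaja2, its close relative, stood at 0.27, 0.15 and 0.25 in Dicer KO and -0.15, -0.19 and -0.29 in Dicer WT. The genotypes did not overlap, and the difference was 0.43 ± 0.059, or 1.35-fold (limma, adjusted p = 0.00656). Both genes passed without any 1 array and with the arrays centred within level classes. The remaining class A genes did not pass: Dnaja3 of the mitochondria differed by 0.060 ± 0.096 (adjusted p = 0.809), and Dnaja4 by -0.39 ± 0.12 (adjusted p = 0.0989).

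Hspa4l and Hspa4 encode APG-1 and APG-2, HSP110-type proteins that recharge HSP70 with ATP. Hspa4l stood at 0.60, 0.52 and 0.22 in Dicer KO and at -0.28, -0.22 and -0.40 in Dicer WT. The groups did not overlap, the difference was 0.75 ± 0.10, or 1.68-fold (limma, adjusted p = 0.00685), and the gene passed under every leave-one-out fit and the class centring.

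Hspa4 stood at 0.097, 0.23 and 0.20 in Dicer KO and -0.097, -0.12 and -0.13 in Dicer WT, with no overlap. Its difference of 0.29 ± 0.054, or 1.23-fold, passed (limma, adjusted p = 0.0182) but was lost without Dicer KO 2 or KO 3 and without Dicer WT 1 or WT 2, and with the class centring. Hsph1, which encodes HSP110 itself, stood at -0.21, 0.44 and 0.32 in Dicer KO and -0.49, -0.53 and 0.21 in Dicer WT. The groups overlapped, since Dicer KO 1 lay below Dicer WT 3, and the difference of 0.45 ± 0.24 did not pass (adjusted p = 0.352).

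Hspa8 encodes HSC70, the constant HSP70 of the cytosol, and was read from 3 rows. It stood at -0.022, 0.11 and 0.56 in Dicer KO and -0.31, -0.26 and 0.12 in Dicer WT. The arrays numbered 3 were the highest of each genotype and the groups overlapped, and the difference of 0.36 ± 0.17 did not pass (limma, adjusted p = 0.288). Without both arrays numbered 3, an alternative added after the data were seen, Hspa8 passed with a difference of 0.33 (adjusted p = 0.0470). It also passed in the planned fit that blocked the arrays by replicate number. Hsp90aa1, the inducible cytosolic HSP90, stood at 0.080, 0.081 and 0.0039 in Dicer KO and -0.0023, -0.085 and -0.41 in Dicer WT. These did not overlap by a narrow margin, and the difference of 0.22 ± 0.10 did not pass (adjusted p = 0.288). Hspa14, an HSP70 of the ribosome, differed by 0.17 ± 0.059 (adjusted p = 0.151).

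Genes of the proteins that help these machines were counted next. Of 21 measured HSP90 cochaperones, 2 rose and 1 fell, with a median of 0.15. Fkbp5, an immunophilin of the steroid receptor complex, rose by 0.60 ± 0.12 (limma, adjusted p = 0.0234), and Pih1d1, part of the R2TP assembly complex, rose by 0.26 ± 0.056 (adjusted p = 0.0342). Unc45a, a myosin chaperone that binds HSP90, had a difference of -0.35 ± 0.049 (adjusted p = 0.00679). Of 13 other HSP70 exchange factors and adaptors, 0 passed in limma and 5 had an unadjusted p under 0.05. Nearest was Hyou1, the exchange factor of BiP, at 0.34 ± 0.089 (adjusted p = 0.0622), which also counts in the endoplasmic reticulum list.

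The classical stress-inducible genes of the cytosol did not pass, and several spread widely over the Dicer WT arrays. Hspa1a, the inducible HSP70 itself, stood at -0.030, -0.099 and 0.030 in Dicer KO and at -0.88, 0.20 and 2.24 in Dicer WT. The Dicer WT range of 3.12 was the widest of all 19935 genes, beside a median range of 0.145, while the 3 Dicer KO arrays lay within it. The difference of -0.55 ± 0.69 did not pass (limma, adjusted p = 0.742), and it was 0.31, of the opposite sign, without Dicer WT 3 (adjusted p = 0.640). Dnajb1, the main inducible J protein, stood at -0.28, -0.082 and 0.14 in Dicer KO and -0.16, 0.082 and 0.72 in Dicer WT (difference -0.29 ± 0.22, adjusted p = 0.550). Dicer WT 3 was again highest, and without it the difference was -0.033. Of the 6 genes put in this group after the data were seen, 0 passed in limma and 1 had an unadjusted p under 0.05. The differences of Hsph1, Hsp90aa1 and Hspb1 were positive and those of Hspa1a, Dnajb1 and Dnaja4 negative. They ran from -0.55 to 0.45 with a median of -0.13, so the group had no common direction.

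**Figure D4:**
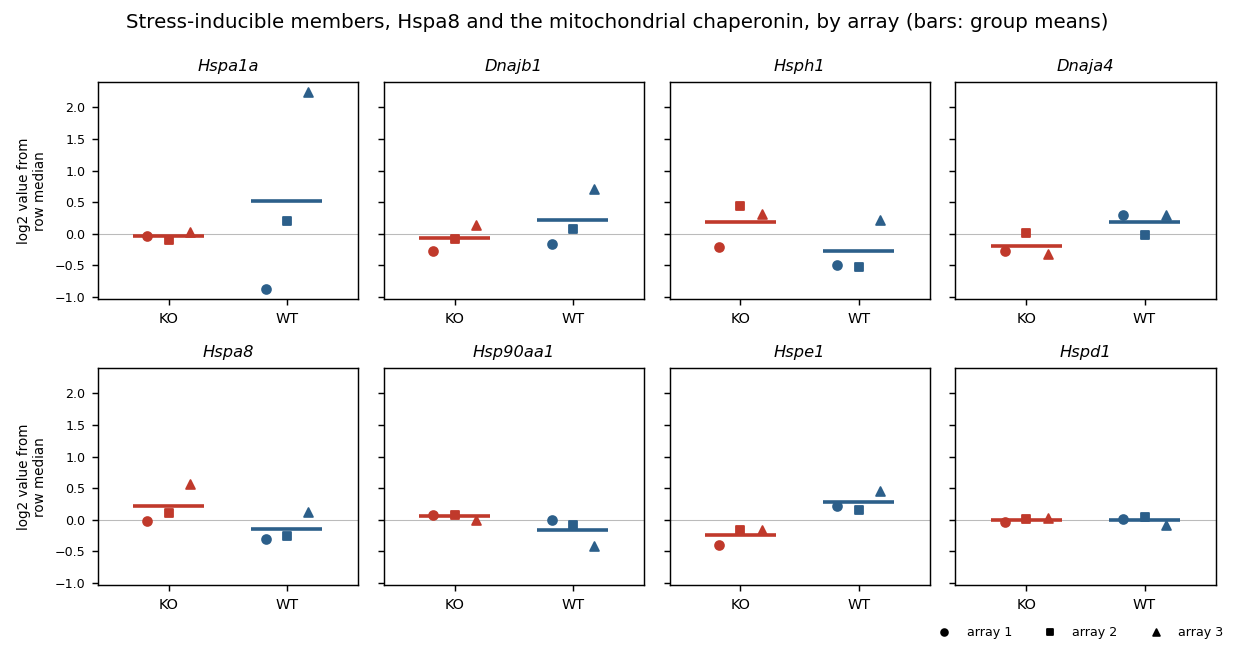
Deposited log2 values, relative to each row's median, of stress-inducible genes, Hspa8 and the mitochondrial chaperonin genes in each Dicer KO array (red, left) and each Dicer WT array (blue, right); bars are group means. Dicer WT 3 stands at 2.24 for Hspa1a and 0.72 for Dnajb1. For Hspe1 all Dicer KO arrays lie below all Dicer WT arrays.

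Genes known to answer tissue handling were set beside this pattern. Of 20 immediate early genes, 1 rose and 2 fell: Socs3 rose by 0.87 ± 0.074 (limma, adjusted p = 0.00134), while Egr1 (-0.49 ± 0.055, adjusted p = 0.00330) and Nr4a1 (-0.60 ± 0.10, adjusted p = 0.0134) fell. Their median by array was 0.014, -0.015 and 0.0018 in Dicer KO and 0.12, -0.037 and -0.098 in Dicer WT. It was lowest on Dicer WT 3, where Hspa1a was highest. Of 20 other genes that answer heat shock factor 1 or stress, 0 passed in limma and 5 had an unadjusted p under 0.05, with a median of 0.042. Nearest were Sqstm1 (0.19 ± 0.056, adjusted p = 0.0985), an autophagy receptor, and Ahsa1 (0.23 ± 0.084, adjusted p = 0.161), which activates HSP90. What part sample handling had in these values was not tested.

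Heat shock elements were searched as GAANNTTCNNGAA, made of 3 units, and as GAANNTTC and TTCNNGAA, each of 2 units and contained in the first, on both strands. Of the 32851 promoter windows, 198 (0.603%) held the first, 7.86% the second and 8.52% the third. Hspd1, Hspe1, Hsph1 and Dnajb6 held the element of 3 units, and Hspa1a held only GAANNTTC. The windows of Hspe1 at chr1:55087898-55088197 (plus strand), Hsph1 at chr5:149636287-149636586 (minus strand, the first of its 2 windows) and Hspa1a at chr17:34972107-34972406 (minus strand) are shown, as those of the gene that fell and of stress genes that spread. They are from RefSeq on GRCm38.p6, printed 5′ to 3′ along the gene, and capitals mark matches to any of these elements.
Hspe1: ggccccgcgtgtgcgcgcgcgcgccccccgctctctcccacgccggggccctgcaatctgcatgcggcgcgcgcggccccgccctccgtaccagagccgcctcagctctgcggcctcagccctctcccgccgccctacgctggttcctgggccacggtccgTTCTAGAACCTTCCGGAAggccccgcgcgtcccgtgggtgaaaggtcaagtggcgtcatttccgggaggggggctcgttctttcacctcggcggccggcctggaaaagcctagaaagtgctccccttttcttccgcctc
Hsph1: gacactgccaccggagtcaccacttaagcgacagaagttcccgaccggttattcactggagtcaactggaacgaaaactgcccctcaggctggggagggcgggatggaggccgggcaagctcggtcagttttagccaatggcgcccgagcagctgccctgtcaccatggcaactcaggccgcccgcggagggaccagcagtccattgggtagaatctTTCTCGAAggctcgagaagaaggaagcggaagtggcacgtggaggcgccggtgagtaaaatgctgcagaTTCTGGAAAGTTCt
Hspa1a: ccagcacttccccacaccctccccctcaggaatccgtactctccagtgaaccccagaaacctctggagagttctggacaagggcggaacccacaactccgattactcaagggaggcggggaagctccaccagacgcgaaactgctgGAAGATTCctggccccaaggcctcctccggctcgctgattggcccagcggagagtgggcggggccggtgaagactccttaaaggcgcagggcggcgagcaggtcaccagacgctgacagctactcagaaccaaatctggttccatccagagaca

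Hspd1 and Hspe1 lie head to head on chromosome 1, and their windows share 285 bases on opposite strands, the matched element included. Of the 88 measured genes with an element of 3 units in a window, 3 rose and 3 fell, with a median difference of -0.010. Nothing about the binding of a factor follows from these letters.

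Of the mitochondrial chaperonin pair Hspe1 fell and Hspd1 did not pass. Hspe1 encodes HSP10, the lid of the HSP60 barrel, and was read from 2 rows that gave differences of -0.52 each. It stood at -0.40, -0.16 and -0.16 in Dicer KO and at 0.22, 0.15 and 0.46 in Dicer WT. The genotypes did not overlap, and Hspe1 fell by 0.52 ± 0.10 on the log2 scale, being 1.43-fold higher in Dicer WT (limma, adjusted p = 0.0234). The call was lost without Dicer KO 1, without Dicer KO 2 and without Dicer WT 1 (adjusted p 0.0562 to 0.0697) and held with the class centring.

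Hspd1, which encodes HSP60, stood at -0.041, 0.0098 and 0.027 in Dicer KO and at 0.021, 0.040 and -0.086 in Dicer WT. The groups overlapped, with a difference of 0.0069 ± 0.055 (limma, adjusted p = 0.969), which turned negative with the class centring. RefSeq names 7 pseudogenes after Hspe1 and 5 after Hspd1, so probes of either gene may also read their transcripts. The difference between the genes was not tested.

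Hspa9 encodes mortalin, the HSP70 of the mitochondrial matrix that pulls in precursor proteins. It stood at 0.12, 0.14 and 0.16 in Dicer KO and -0.31, -0.19 and -0.12 in Dicer WT, with no overlap. The difference of 0.35 ± 0.061, or 1.27-fold, passed (limma, adjusted p = 0.0163), and was lost without Dicer KO 2, without Dicer WT 1 or WT 2 and with the class centring. Of the 8 mitochondrial genes, grouped after the data were seen, 1 rose and 1 fell. Of 17 genes of mitochondrial import and quality control that the choice by name did not take in, 0 rose and 2 fell. These were the import receptor gene Tomm20 (-0.37 ± 0.090, adjusted p = 0.0478) and Hscb, a J protein of iron-sulfur cluster assembly (-0.31 ± 0.070, adjusted p = 0.0374).

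The cytosolic chaperonin CCT is a double ring of 8 different subunits, encoded by Tcp1, Cct2, Cct3, Cct4, Cct5, Cct6a, Cct7 and Cct8, that folds actin and tubulin. Of these 8 genes 3 rose and 0 fell, 7 had positive differences and the median was 0.21. All but Cct6a lay in the higher level class. Of the 3169 genes of that class 2205 had positive differences and 21.1% rose, with a median of 0.12. With the arrays centred within level classes 6 of the 8 subunit genes were positive, Cct7 having turned. In that fit 1 of the 8 was called and their median was 0.11. Cct8 stood at 0.14, 0.20 and 0.27 in Dicer KO and -0.14, -0.15 and -0.19 in Dicer WT. The groups did not overlap, and its difference of 0.36 ± 0.053, or 1.29-fold, passed in every fit run (limma, adjusted p = 0.00820).

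Tcp1, subunit alpha, stood at 0.12, 0.16 and 0.30 in Dicer KO and -0.29, -0.28 and -0.12 in Dicer WT, with no overlap and a difference of 0.42 ± 0.073, or 1.34-fold (limma, adjusted p = 0.0147). Its call was lost without Dicer KO 2, without Dicer WT 1 or WT 2 and with the class centring (adjusted p = 0.0644). Cct2, subunit beta, stood at 0.058, 0.16 and 0.23 in Dicer KO and -0.12, -0.058 and -0.13 in Dicer WT, a difference of 0.25 ± 0.059, or 1.19-fold (adjusted p = 0.0458). The Cct2 call was lost without Dicer KO 2 or KO 3, without each Dicer WT array and with the class centring.

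The other 5 subunits overlapped between genotypes and did not pass. Cct6a had the largest of these differences, 0.32 ± 0.11 (limma, adjusted p = 0.149). It was followed by Cct3 at 0.17 ± 0.094, Cct5 at 0.12 ± 0.11 and Cct7 at 0.059 ± 0.12. Cct4 had the one negative value, -0.14 ± 0.092 (adjusted p = 0.463). In all 8 subunit genes Dicer KO 3 was the highest and Dicer KO 1 the lowest of the Dicer KO arrays, and in 6 of them Dicer WT 3 was the highest Dicer WT array. Cct6b, a testis form, and Cct8l1 differed by -0.077 ± 0.048 and -0.045 ± 0.085, and neither passed.

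**Figure D5:**
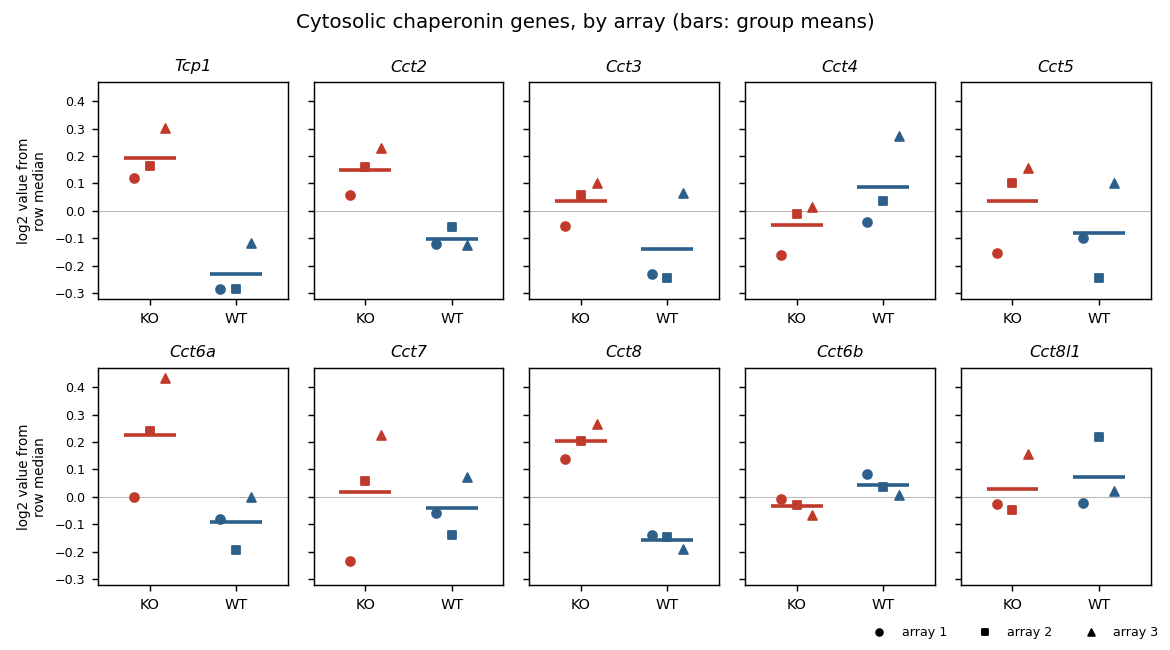
Deposited log2 values, relative to each row's median, of the 10 cytosolic chaperonin genes in each Dicer KO array (red, left) and each Dicer WT array (blue, right); bars are group means. In the 8 subunit genes Dicer KO 3 (triangle) is always the highest Dicer KO array. The genotypes do not overlap for Tcp1, Cct2 and Cct8, nor for Cct6b, which is lower in Dicer KO.

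Genes of proteins that work with the ring were counted as well. Of 18 prefoldin and CCT or tubulin cofactor genes, 0 rose and 2 fell, with a median of -0.12: Pdrg1, a prefoldin-like gene (-0.47 ± 0.098, limma, adjusted p = 0.0304), and Tbca, which holds beta tubulin after release (-0.34 ± 0.082, adjusted p = 0.0472). Clients of the ring were counted from 13 measured genes, those of actin and tubulins with Cdc20, Fzr1 and Hdac3. Of these 13, 0 passed in limma and 3 had an unadjusted p under 0.05, Hdac3 among them. Nearest were Tubg1 (0.31 ± 0.076, adjusted p = 0.0530) and Actb (0.21 ± 0.063, adjusted p = 0.0962).

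Among the remaining J proteins, class C, defined only by the presence of a J domain, held the most genes and the least common direction. Of its 28 genes 2 rose, Dnajc3 and Dnajc13, and 1 fell, with a median of -0.0076. Dnajc13 encodes RME-8, which acts with HSC70 on endosomes, and was the average of 15 rows. It stood at 0.26, 0.22 and 0.051 in Dicer KO and -0.090, -0.10 and -0.29 in Dicer WT, with no overlap. Its rows differed by 0.19 to 0.50, all in the same direction, and the mean of 0.34 ± 0.081, or 1.26-fold, passed narrowly (limma, adjusted p = 0.0474). That call was lost without every array except Dicer KO 3, with the class centring, and when each row was tested by itself, where 6 of the 15 rows passed.

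Dnajc27, a Rab-like small GTPase with a J domain, stood at -0.057, -0.21 and -0.13 in Dicer KO and 0.057, 0.13 and 0.15 in Dicer WT, with no overlap. It fell by 0.24 ± 0.058 on the log2 scale, being 1.18-fold higher in Dicer WT (limma, adjusted p = 0.0471). The call was lost in all 6 fits that left out an array and with the class centring. Just outside the threshold, Dnajc25 did not overlap and differed by 0.26 ± 0.063 (adjusted p = 0.0514). Dnajc16 differed by 0.19 ± 0.061 and Dnajc6, the neuronal clathrin-uncoating protein auxilin, by -0.26 ± 0.096, and neither passed. The 25 class C genes that did not pass ran from -0.26 to 0.26.

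Class B, the kin of Dnajb1, had 1 of 13 genes higher, Dnajb11, and 0 lower, with a median of 0.061. Dnajb2 did not overlap, at -0.097, -0.31 and -0.032 in Dicer KO and 0.067, 0.032 and 0.15 in Dicer WT, and differed by -0.23 ± 0.080 without passing (limma, adjusted p = 0.147). Dnajb14 differed by 0.078 ± 0.048 and Dnajb5 by 0.11 ± 0.066, and neither passed.

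The 8 small heat shock proteins, which hold damaged proteins without using ATP, all lay in the lower level class and 0 passed in limma, with 1 at an unadjusted p under 0.05. Their differences ran from -0.16 to 0.068 with a median of -0.053. Hspb2 was the one whose genotypes did not overlap, at -0.12 ± 0.047 (adjusted p = 0.184). The HSP70 relatives Hspa12a, Hspa12b, Hspa1l and Hspa2 also did not pass. Hspa12a did not overlap and differed by -0.14 ± 0.053 (adjusted p = 0.194). Hsf2, a heat shock factor, stood at 0.017, -0.017 and -0.12 in Dicer KO and 0.14, 0.31 and -0.11 in Dicer WT, with overlap and a difference of -0.15 ± 0.11 (adjusted p = 0.50).

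Of the 15 genes that passed, 7 did so in each of the 6 fits that left out 1 array: Hspa5, Hsp90b1, Dnajb11, Dnaja1, Dnaja2, Hspa4l and Cct8. Of these, Hspa5, Hsp90b1 and Dnajb11 belong to the endoplasmic reticulum, Dnaja1, Dnaja2 and Hspa4l to the HSP70 cycle of the cytosol, and Cct8 to the chaperonin ring. With 3 arrays a genotype the precision was limited by their number.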

How the data were processed

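Total RNA was amplified and measured on 1-colour Affymetrix MoGene 1.0 ST arrays, per the labels' protocols. The authors deposited 1 table of log2 values (the base is not stated and was taken as 2) for 28815 rows on 6 arrays. The submitters' processing notes name MAS5, and their normalization was not stated. Every row was found to be centred on its median (largest absolute row median 5e-07), and values ran from -2.59 to 3.00. Signal over background and depth are unknown.

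Rows were named through the platform annotation: 21780 had 1 symbol, 1605 several and 5430 none. Of the first, 21689 matched RefSeq genes of GRCm38.p6. Rows of a gene were averaged, as for 998 genes, without a filter on low values.

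Genes were tested with limma 3.58.1 (lmFit, eBayes) in R 4.3.3 with Benjamini-Hochberg adjusted p-values, over all genes, under 0.05 called. The fit was tested on simulated data. Samples were grouped by their labels. The members and lists were chosen with earlier results of these data known. Named were every gene that passed, up to 4 further genes per family by lowest p and a fixed set of main chaperones and chaperonin subunits, and from each related list up to 4 genes that passed or else the nearest 2. Genes named outside this rule are marked, or are markers and members of groups made later. The binary step of the stored values gave the level class (16.4% of rows at 8 or more). Alternatives were row-wise tests, array weights, a robust variance prior, array centring, the higher level class alone, a replicate block, leaving out each array, and 2 that were chosen after seeing the data. Protein sequences were not used here.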

Additional observations from a re-analysis of the deposited data

How the results depend on the processing

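The main counts were 13 genes higher, 2 lower and 1741 of all genes past the threshold. With array weights the counts were 15, 2 and 2537. With the higher level class alone they were 12, 1 and 1036, where Dnajc27 and Hspa4l were not in the class. Leaving out 1 array at a time gave 7 to 13 genes higher, 0 to 1 lower and 729 to 1597 of all genes; the fewest came without Dicer KO 2 (7, 0 and 729) and without Dicer WT 1 (7, 0 and 849), and 8 were higher without Dicer WT 2. Such fits have fewer samples. Leaving out Dicer KO 3 and Dicer WT 3 gave 11, 1 and 1670 and lost Cct2, Dnajc27, Dnajc3 and Hspa4, and arrays centred within level classes gave 7, 1 and 1471; both were chosen after seeing the data. Whether the replicate numbers of the labels pair the samples was not settled. Deviations from the genotype means correlated at 0.27, -0.08 and 0.30 between same-numbered arrays. Between arrays of different numbers they correlated at -0.37 to 0.23. A fit with the replicate block gave 13 higher, 1 lower and 2063 of all genes, lost Cct2 and Dnajc27 and gained Hspa8. Row-wise tests (13, 2 and 1722, with Dnajc13 lost at adjusted p = 0.381 and Dnajc25 gained), a robust prior (13, 2 and 1682) and array-median centring (14, 2 and 1756) gave counts within 1.5 times the main ones. No gene that passed changed direction under the 14 alternatives run. Signal over background was unknown, so dim rows could not be set apart except by the level class.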
